A study of Mus musculus with 15 samples.

Results

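The nuclear genes of the mitochondrial respiratory chain were followed from CDPs (common dendritic cell progenitors) to Zbtb46-GFP+ cells, in WT, Batf3 KO and Id2 KO mice. A gene was a member if its only annotated symbol began with Ndufa, Ndufb, Ndufc, Ndufs, Ndufv, Uqcr, Cox4i, Cox5, Cox7, Cox8 or Atp5, or was Sdha, Sdhb, Sdhc, Sdhd or Cycs. These names gave 85 members among 19938 genes tested. By role they were 34 subunits of complex I, 7 complex I assembly factors (Ndufaf1 to Ndufaf7), 4 subunits of complex II, 8 of complex III, 14 of complex IV, 17 of ATP synthase, and cytochrome c. Ndufa4 and Ndufa4l2 were counted with complex IV, where Ndufa4 protein is found. The rule used names and no measured value.

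The respiratory chain sits in the inner mitochondrial membrane. Complex I takes electrons from NADH and complex II from succinate, complex III passes them to cytochrome c, and complex IV hands them to oxygen. Complexes I, III and IV pump protons, and ATP synthase uses the proton gradient to make ATP. Most subunits are encoded in the nucleus and imported, and NRF1 and the ETS factor GABP are known activators of their genes. Dividing progenitors draw on the chain for ATP and for biosynthesis, and dendritic cells are known for shifts between respiration and glycolysis.

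The study placed 15 bone marrow samples on Affymetrix mouse gene arrays. All cells carried the Zbtb46-GFP reporter, in which green fluorescent protein marks cells that express Zbtb46, a transcription factor of conventional dendritic cells. CDPs had 2 arrays per genotype, and the Zbtb46-GFP+ cells with intermediate cKit had 3. The labels name chimeric mice for WT and Id2 KO and reporter mice for Batf3 KO, and this difference in host cannot be told apart from the Batf3 genotype. BATF3 is needed for the cDC1 lineage, and ID2 is an inhibitor of E proteins. The labels do not say that replicates were separate animals, so p-values measure the spread between arrays, which may be technical. In such sorted pools, fewer cells of a type and less RNA per cell cannot be told apart.

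Replicate 1 of each Zbtb46-GFP+ group stood apart in scale. The median probe set signal was between 23.8 and 24.1 on these 3 arrays and between 100.8 and 112.1 on the rest, and 50 of the 85 members were identical to the printed digit on the WT and Batf3 KO arrays (74.9% of all genes). Values and tests below use the 12 arrays, 2 per group. Batf3 signal was 9.92 ± 0.10 (log2, SD, n = 2) in WT Zbtb46-GFP+ cells, against 7.10 ± 0.31 in Batf3 KO. Id2 signal was 11.74 ± 0.37 in WT, against 8.61 ± 0.30 in Id2 KO. Of 5 progenitor markers 3 fell and 1 rose in the WT step, and all 3 cDC2 and 4 of 5 cDC1 markers rose.

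In WT cells, 3 of the 85 members changed between CDPs and Zbtb46-GFP+ cells, and all 3 were lower in the Zbtb46-GFP+ cells. They were Ndufaf4, Atp5g1 and Atp5a1. Of all genes, 11.1% passed the same test (limma, adjusted p under 0.05) and 6.38% passed as lower, so the members' count was below the background. The members nonetheless lay low: 75 of the 85 differences were negative, with a median of -0.29 on the log2 scale, against a median of 0.03 over all genes. With each array centred on its 75th percentile the medians were -0.18 and 0.14. Most members are bright, and part of the gap was common to bright genes. Without that centring, the 4985 genes of highest mean signal had a WT median of -0.16, and the 73 members among them -0.29. Of those bright genes 12.7% were called lower, and of the members among them 2.74%. Single-genotype tests rested on 2 arrays against 2.

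Ndufaf4, which helps build complex I, had the lowest difference of the members. Its log2 signal was 8.76 and 8.60 on the WT CDP arrays and 7.73 and 7.74 on the WT Zbtb46-GFP+ arrays. The arrays of the 2 stages did not overlap, and the Zbtb46-GFP+ level was 0.52 of the CDP level (log2 difference -0.94, SE 0.19, adjusted p = 0.0077 in limma). In Id2 KO cells it read 9.02 and 8.47 in CDPs and 7.90 and 7.87 in Zbtb46-GFP+ cells. That was the 1 member called in the Id2 KO step (-0.86, SE 0.19, adjusted p = 0.0191 in limma). In Batf3 KO cells it read 8.55 and 8.37 against 8.12 and 7.73, a difference of -0.54 with an adjusted p of 0.134. All 6 Zbtb46-GFP+ arrays were below all 6 CDP arrays for this gene.

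The promoter window of Ndufaf4 is shown because this gene had the lowest difference and its window held 2 separate NRF1 core matches. The sequence is RefSeq's, 250 bases before to 50 after the gene start, at chr4:24897833-24898132 of GRCm38.p6 on the plus strand, and capitals mark the core GCGCATGC or its reverse complement GCATGCGC, with overlapping matches run together.
Ndufaf4: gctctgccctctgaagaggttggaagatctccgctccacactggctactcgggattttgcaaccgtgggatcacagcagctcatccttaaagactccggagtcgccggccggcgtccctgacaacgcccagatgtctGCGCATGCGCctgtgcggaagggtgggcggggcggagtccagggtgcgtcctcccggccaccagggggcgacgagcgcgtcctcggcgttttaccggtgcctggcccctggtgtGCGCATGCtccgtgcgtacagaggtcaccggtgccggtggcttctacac

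Atp5g1 and Atp5a1 encode parts of ATP synthase. Atp5g1 is 1 of 3 genes for the same c subunit of the membrane ring, and Atp5a1 encodes the alpha subunit of the catalytic head. Atp5g1 read 10.31 and 10.07 in WT CDPs and 9.61 and 9.55 in WT Zbtb46-GFP+ cells (-0.62, SE 0.16, adjusted p = 0.0264 in limma). Atp5a1 read 12.08 and 11.86 in WT CDPs and 11.31 and 11.49 in WT Zbtb46-GFP+ cells (-0.57, SE 0.15, adjusted p = 0.0355 in limma). Neither gene's stages overlapped. Without WT CDP replicate 1 none of the 3 members was called, and the adjusted p was 0.0653 for Ndufaf4, 0.203 for Atp5g1 and 0.248 for Atp5a1.

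The Atp5g1 window is shown for contrast, since it held no NRF1 core. It lies at chr11:96075582-96075881 of GRCm38.p6 on the minus strand (RefSeq), and capitals mark CCAAT, the NF-Y core, or its reverse complement, and the E-box CACGTG.
Atp5g1: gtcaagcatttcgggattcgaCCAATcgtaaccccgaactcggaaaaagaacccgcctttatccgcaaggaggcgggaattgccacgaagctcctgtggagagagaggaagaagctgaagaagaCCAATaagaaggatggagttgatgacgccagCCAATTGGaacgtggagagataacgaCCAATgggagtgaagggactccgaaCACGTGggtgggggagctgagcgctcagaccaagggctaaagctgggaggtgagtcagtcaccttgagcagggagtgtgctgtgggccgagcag

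In the other complexes, the WT differences of greatest size did not pass the test. Uqcr11, a small subunit of complex III, differed by -0.67 with an SE of 0.34 and an adjusted p of 0.282 in limma. Cox5a, a nuclear subunit of complex IV, differed by -0.60 (SE 0.18, adjusted p = 0.0535 in limma). Ndufs8, which carries iron-sulfur clusters in complex I, differed by -0.54 and Sdha, the flavoprotein of complex II, by -0.43. Cycs, the electron carrier between complexes III and IV, pointed the other way at 0.31 (SE 0.24). Its arrays spread widely within groups, from 11.69 to 12.17 in WT CDPs and from 11.96 to 12.52 in WT Zbtb46-GFP+ cells, so the stages overlapped.

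**Figure D1:**
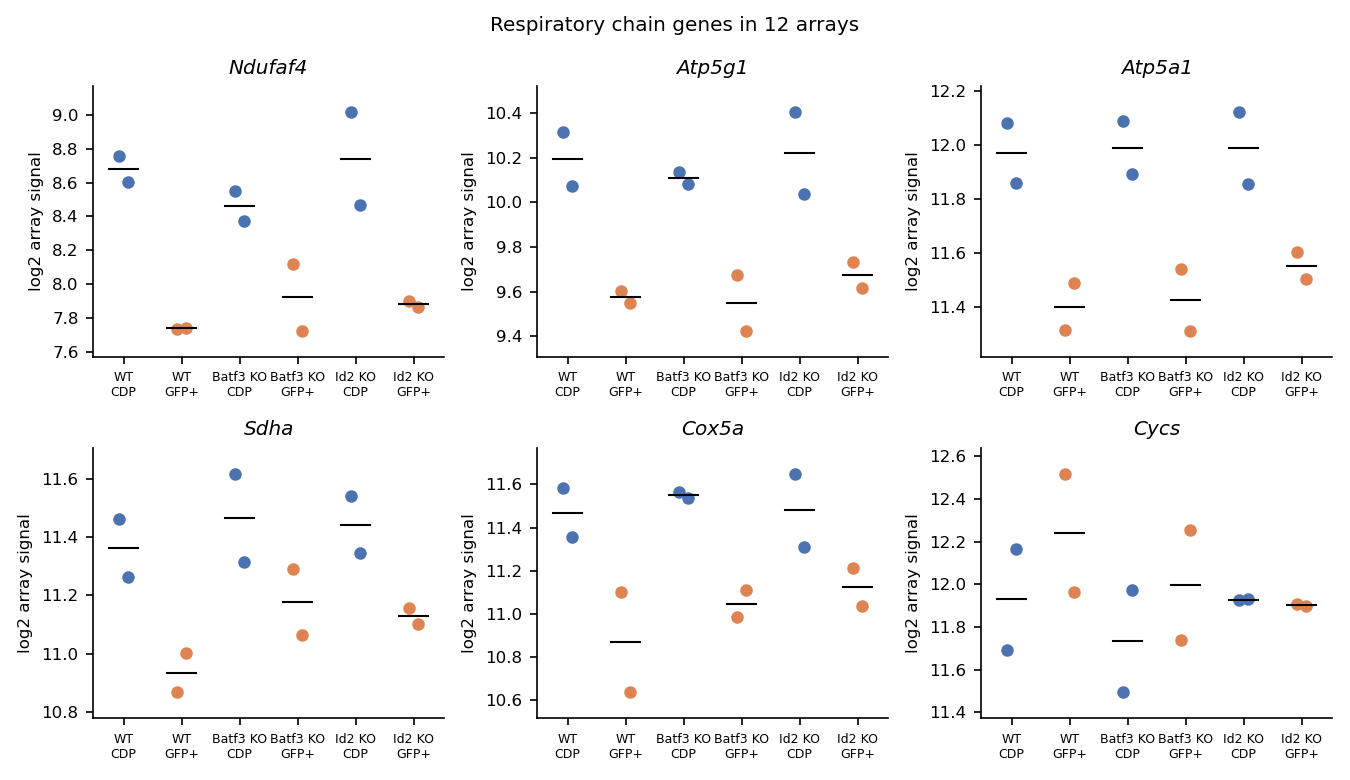
Log2 array signal of 6 respiratory chain genes on the 12 arrays; the x axis gives the 6 groups (GFP+ stands for Zbtb46-GFP+ cells), points are arrays and lines are means of 2. Ndufaf4, Atp5g1 and Atp5a1 were lower on all Zbtb46-GFP+ arrays than on all CDP arrays, while the Cycs arrays of the 2 stages overlapped.

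The knockout steps looked alike in direction. In Batf3 KO cells 0 of 85 members passed limma's adjusted threshold, with 22 at an unadjusted p under 0.05, while 7.18% of all genes passed and 3.32% passed as lower. The members' median was -0.27, with 76 of 85 differences negative. In Id2 KO cells Ndufaf4 alone passed, against 6.82% of all genes and 2.98% as lower, and the median was -0.19 with 74 negative. That Id2 KO median was -0.03 without CDP replicate 1 and -0.38 without CDP replicate 2, so it moved with single CDP arrays. The 3 steps share no arrays, and 68 of the 85 members were negative in all 3, against 28.0% of all genes. That share was not matched for brightness. The CDP arrays varied alike across genotypes. Their 75th percentile signal in replicates 1 and 2 was 409.9 and 344 in WT, 402.4 and 353.6 in Batf3 KO, and 407.8 and 344.6 in Id2 KO. An array effect common to the 3 steps was not tested.

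**Figure D2:**
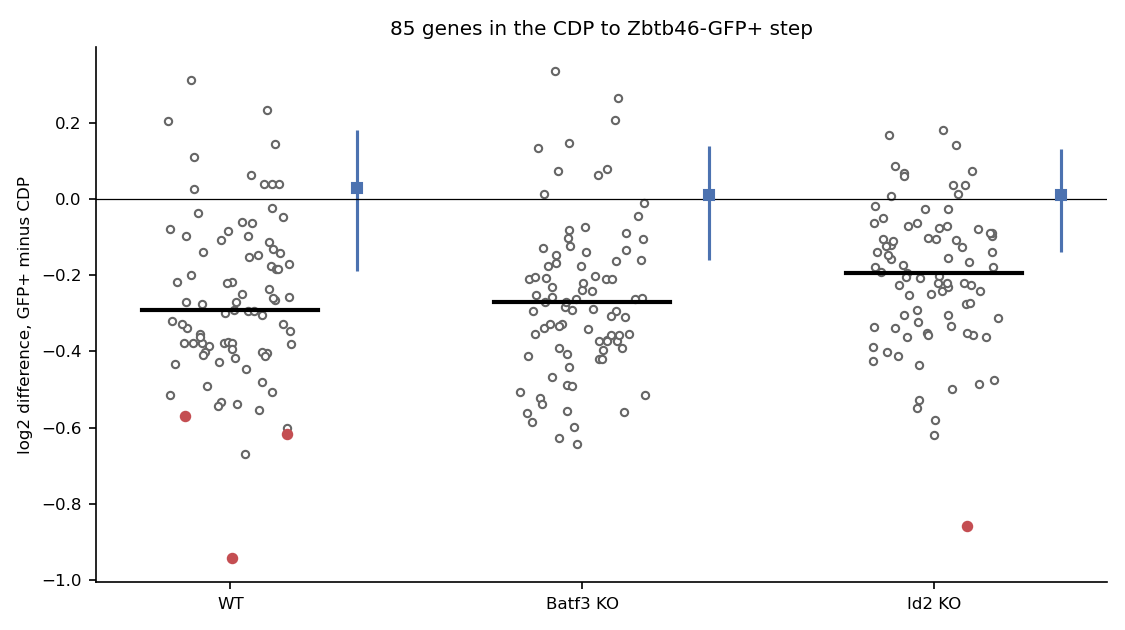
Log2 difference between Zbtb46-GFP+ cells and CDPs for the 85 members in each genotype; filled points passed the test, thick lines are the members' medians, and the squares with bars are the median and quartiles of all genes. The members' medians were -0.29, -0.27 and -0.19, and those of all genes 0.03, 0.01 and 0.01.

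The arrays themselves show how often the stages separated. In WT, both Zbtb46-GFP+ arrays were below both CDP arrays for 53 members, where 22.9% of all genes did so. In Batf3 KO this held for 62 members (all genes, 23.3%) and in Id2 KO for 38 (all genes, 21.4%). It held in all 3 genotypes for 27 members, or 31.8%, against 11.9% of all genes. These shares of all genes were not matched for brightness, and most members are bright.

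A further contrast, the mean of the 3 steps in the same fit, was added after seeing that few members passed in a single genotype. In this averaged step 35 of the 85 members were lower in Zbtb46-GFP+ cells and 0 were higher by limma's test, where 14.1% of all genes were lower and 9.23% higher. At an unadjusted p under 0.05 the count was 49 lower and 0 higher. The members' median was -0.25. All 6 Zbtb46-GFP+ arrays lay below all 6 CDP arrays for 20 members, against 9.21% of all genes. Members are mostly bright, and 73 of them were among the 4985 genes of highest mean signal. Of these genes 26.6% were lower, with a median of -0.11, and 32 of the 73 members (43.8%) were.

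This count depended on scaling and on single arrays. Calls over all genes moved with the setting too, in the WT step from 11.1% to 8.44% with a block by replicate number. The counts here are therefore not shown to be particular to the members. With each array centred on its 75th percentile, the WT split of all genes turned, from 940 higher and 1272 lower to 1197 higher and 996 lower. The members' count in the averaged step was 18 there. It was 3 in a fit blocked by replicate number and 0 in one that added the 3 arrays that stood apart without a term for them, while leaving out single arrays gave 16 to 51. All were lower but for Cox8c, which was called as higher without Id2 KO CDP replicate 2 and with a block for brighter and dimmer arrays. Of the 35 members, 15 were called with each of the 12 arrays left out in turn, and Ndufaf4, Atp5g1 and Atp5a1 were among them.

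Neutrophil markers rose along with the averaged step, all 5 of 5, with a median of 2.05 (log2). Their summed signal ranged from 4460 to 9374 in WT CDPs and from 15093 to 17004 in WT Zbtb46-GFP+ cells. In Batf3 KO the sums were 3149 to 6170 and then 19837 to 28308, and in Id2 KO 5321 to 15952 and then 38097 to 39614. In single genotypes 0 of the 5 passed in the WT step (median 1.34), 4 in the Batf3 KO step (median 2.49) and 4 in the Id2 KO step (median 2.27), all higher. Of the other marker lists in the averaged step, 0 of 3 erythroid and 0 of 4 T and NK markers passed, 1 of 4 B-lineage markers was lower, and 1 of 3 monocyte and 1 of 4 pDC markers were higher. With the log of this sum as a covariate, an alternative also added after seeing the data, 52 members were lower and none higher, where 38.3% of all genes were called. Of the 35 members, 29 were called there too. The sum itself largely followed stage, and with group means in the fit its slope rests on the 2 arrays within each group. This fit therefore cannot tell neutrophil content apart from the step.

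Complex I has the most members and gave the most calls in the averaged step, with 14 of its 34 subunits lower and none higher. Beside this, 35 of all 85 members and 14.1% of all genes were lower, so complex I did not stand out among the members. Ndufb2, an accessory subunit of the membrane arm, read 9.56 at the lowest, 9.81 at the median and 10.22 at the highest over the 6 CDP arrays, and 9.14, 9.29 and 9.46 over the Zbtb46-GFP+ arrays. The stages did not overlap, and the averaged difference was -0.54 (SE 0.11, adjusted p = 0.00411 in limma). Ndufv1, which binds NADH and the flavin cofactor, and Ndufs1, the iron-sulfur subunit beside it, each fell by 0.46. Ndufa10, an accessory subunit, fell by 0.45 and Ndufs3, in the arm that leads to ubiquinone, by 0.41. These 4 were picked after their values were seen. Ndufa6 was the highest of the complex at 0.10 and did not pass.

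Of the 7 complex I assembly factors 3 fell, where 14.1% of all genes were lower. The 3 were among the 4 members with the lowest averaged differences. Ndufaf4 fell by 0.78 (SE 0.11, adjusted p = 0.000335 in limma), Ndufaf2 by 0.59 (SE 0.14, adjusted p = 0.0106) and Ndufaf1 by 0.57 (SE 0.12, adjusted p = 0.00576). Ndufaf1 ranged from 8.01 to 8.70 over the CDP arrays and from 7.65 to 7.89 over the Zbtb46-GFP+ arrays. Its stages did not overlap. Ndufaf3, Ndufaf5, Ndufaf6 and Ndufaf7 did not pass.

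Complex II feeds electrons from succinate and is also an enzyme of the TCA cycle. Sdha, Sdhb (the iron-sulfur subunit) and Sdhd (a membrane anchor) fell by 0.34, 0.30 and 0.29 in the averaged step, and Sdhc, the other anchor, differed by -0.23 with an adjusted p of 0.104 in limma. Of all genes 14.1% were lower in that step. Sdha read 11.46 and 11.26 in WT CDPs and 10.87 and 11.00 in WT Zbtb46-GFP+ cells. In Batf3 KO it read 11.62 and 11.31 against 11.29 and 11.06, and in Id2 KO 11.54 and 11.34 against 11.16 and 11.10. Within each genotype its stages did not overlap, although the 2 ranges met across genotypes. Sdhb means in WT, Batf3 KO and Id2 KO were 11.31, 11.39 and 11.38 in CDPs and 10.98, 11.06 and 11.15 in Zbtb46-GFP+ cells. The same means for Sdhd were 9.28, 9.27 and 9.33, then 8.91, 8.96 and 9.14. For Sdhc they were 10.42, 9.91 and 10.36, then 10.07, 9.78 and 10.14, with Batf3 KO low at both stages.

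Beside 14.1% of all genes and 26.6% of the genes of highest mean signal, 4 of 8 complex III subunits were lower in the averaged step. These were Uqcrc1 and Uqcrc2 (the core proteins), Uqcrq and Uqcr10, picked because they passed, with differences between -0.32 and -0.23. Uqcr11 had the lowest estimate, -0.55, but its arrays spread from 9.67 to 10.88 within Id2 KO CDPs and it did not pass (SE 0.19, adjusted p = 0.0663 in limma). Uqcrfs1, the Rieske iron-sulfur protein, did not pass either.

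Complex IV, cytochrome c oxidase, has isoforms that differ by tissue. Cox4i1, Cox5a, Cox8a and Ndufa4 fell in the averaged step, by 0.29, 0.49, 0.30 and 0.43. They were the 4 members of 14 called, where 14.1% of all genes and 26.6% of the genes of highest mean signal were lower. Cox4i1, the common form, averaged 12.31, 12.36 and 12.37 in CDPs of WT, Batf3 KO and Id2 KO and 11.91, 12.08 and 12.19 in Zbtb46-GFP+ cells. Cox4i2, a form known from lung and from hypoxia, differed by -0.17 and did not pass, and its 12 arrays lay between 7.07 and 7.55. Cox5a averaged 11.47, 11.55 and 11.48 in CDPs and 10.87, 11.05 and 11.12 in Zbtb46-GFP+ cells. Cox5b, its partner subunit and not an isoform, differed by -0.17.

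Cox7a1 (the form of heart and muscle), Cox7a2 (the form of most other tissues) and Cox7a2l (which takes part in joining complexes III and IV) differed by -0.31, -0.11 and 0.02, and none passed. Cox8b, known from heart and muscle, lay between 5.77 and 6.25 on all 12 arrays, and Cox8c, known from testis, between 6.76 and 7.51. Ndufa4l2, a relative of Ndufa4 known from hypoxia, lay between 5.57 and 6.05. Cox8b, Ndufa4l2 and Cox7b2 were the 3 members below the median gene in mean signal, with no detection call in the files to separate them from background. Levels here compare arrays for 1 gene and not 1 gene with another.

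ATP synthase had 7 of 17 genes lower in the averaged step, beside 14.1% of all genes and 26.6% of the genes of highest mean signal. Atp5g1 fell by 0.57 (SE 0.09, adjusted p = 0.000757 in limma) and Atp5a1 by 0.52 (SE 0.09, adjusted p = 0.00125). The c subunit genes differed in part: Atp5g3 fell by 0.31, and Atp5g2 differed by -0.24 with an adjusted p of 0.0619. Atp5g2 averaged 10.17, 10.21 and 10.19 in CDPs of WT, Batf3 KO and Id2 KO and 9.91, 9.91 and 10.02 in Zbtb46-GFP+ cells. Atp5g3 averaged 10.87, 10.87 and 10.86, then 10.49, 10.54 and 10.63. Atp5b, the catalytic beta subunit, fell by 0.25 and Atp5o, the stalk protein that confers oligomycin sensitivity, by 0.38, and both were picked after their values were seen. Atp5l and Atp5h were at 0.00 and did not pass.

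Cytochrome c did not pass the test. Cycs read 11.49 and 11.97 in Batf3 KO CDPs and 11.74 and 12.25 in Batf3 KO Zbtb46-GFP+ cells. In Id2 KO it read 11.93 on both CDP arrays and 11.91 and 11.90 on the Zbtb46-GFP+ arrays. The stages overlapped in WT and Batf3 KO, and in Id2 KO both Zbtb46-GFP+ arrays were slightly below both CDP arrays. The averaged difference was 0.18 (SE 0.14, adjusted p = 0.430 in limma). Cycs has near-identical copies in the genome, so its probe sets may share signal with them, and 1 dim probe set differed by -0.02 in the WT step where the others gave 0.31 and 0.28.

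**Figure D3:**
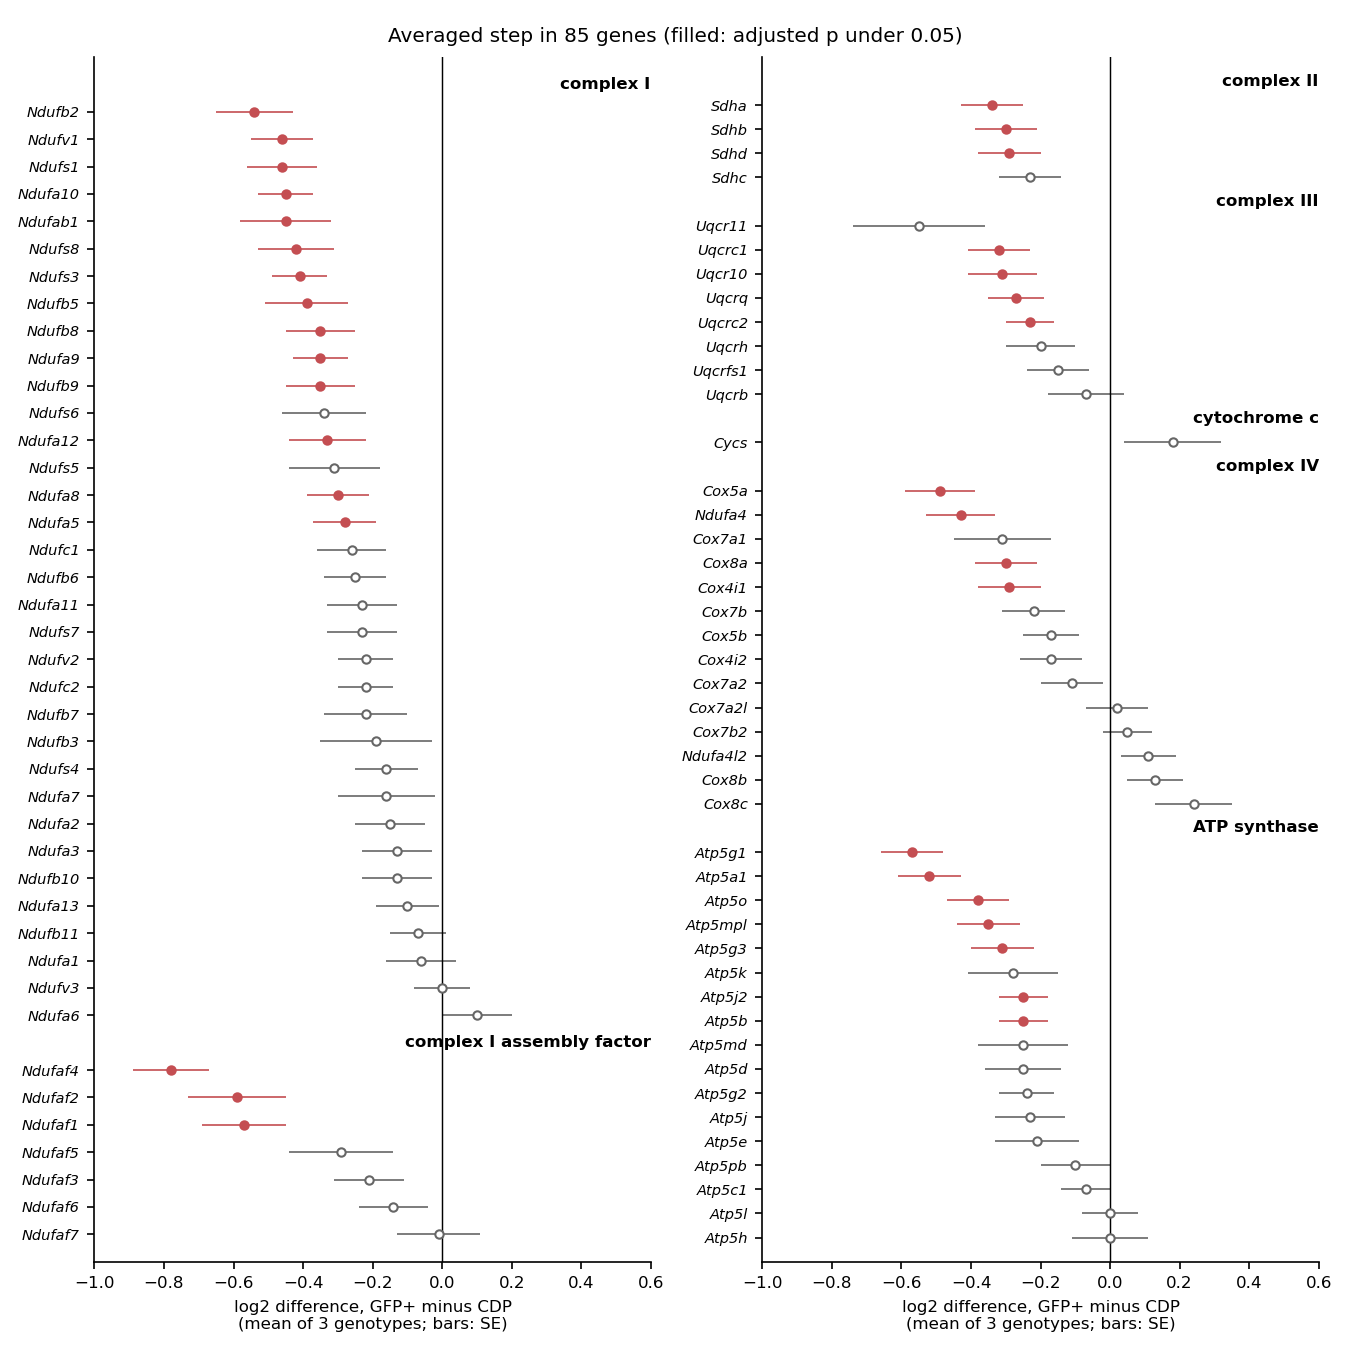
Log2 difference between Zbtb46-GFP+ cells and CDPs, averaged over the 3 genotypes, for each of the 85 members by complex; bars are 1 SE and filled points passed the test. The 35 filled points all lie below 0, and Cycs lies at 0.18.

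No member passed limma's test for either knockout at either stage. These tests set 2 arrays against 2. In simulated data 100 of 19938 genes were changed by 0.5 (log2) and 100 by 1. The WT step test of that size called 5 and 59 of these, so small changes could be missed. Such shares depend on how many genes change, so they are not the power of each comparison here. In Zbtb46-GFP+ cells of Batf3 KO mice 0 of 85 members passed against WT (0 at an unadjusted p under 0.05), while 0.336% of all genes did. The differences were centred on 0.00 and ran from -0.37 to 0.24. In CDPs of Batf3 KO mice 0 passed, with 1 at an unadjusted p under 0.05, while 0.0502% of all genes did. The 1 member was Sdhc, picked after its value was seen, which read 10.10 and 9.73 against 10.59 and 10.25 in WT (-0.51, SE 0.16, adjusted p = 1 in limma). Those arrays did not overlap.

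Id2 KO Zbtb46-GFP+ cells had 0 of 85 members past the test, with 1 at an unadjusted p under 0.05, where 1.81% of all genes passed. Their differences from WT leaned upward, with 69 of 85 positive and a median of 0.09, against -0.02 over all genes. With each array centred on its 75th percentile that lean was gone, at 44 positive and a median of 0.01. The lowest was Ndufaf6, an assembly factor of complex I, which read 7.44 and 7.29 against 8.18 and 7.89 in WT (-0.67, SE 0.17, adjusted p = 0.0884 in limma). It was picked after its value was seen. In Id2 KO CDPs 0 members passed (0 at an unadjusted p under 0.05), where 0.0251% of all genes did, and the median was 0.02. That median was -0.17 without Id2 KO CDP replicate 1 and 0.18 without replicate 2.

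The interaction, which asks whether a knockout altered the step itself, called 0 members in limma for Batf3 KO (0 at an unadjusted p under 0.05) and 0 for Id2 KO (1 at an unadjusted p under 0.05). Over all genes it called 0.0953% and 0.321%. For Ndufaf4 the Batf3 KO step was weaker than the WT step by 0.40 with an SE of 0.27, and it did not pass. Comparisons with WT share the WT arrays.

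**Figure D4:**
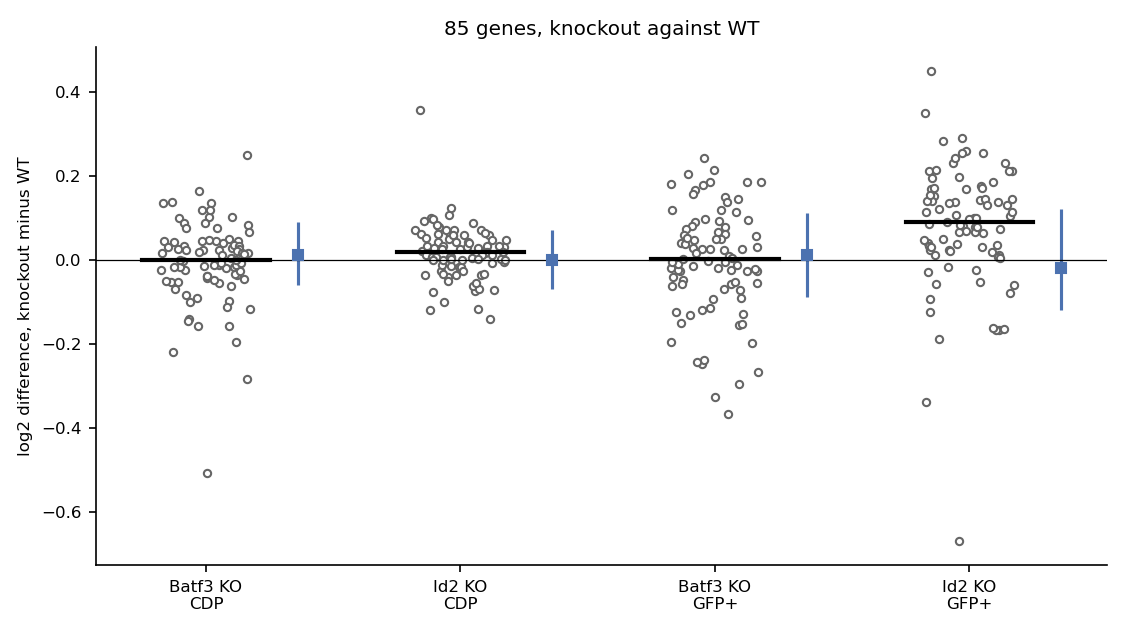
Log2 difference between knockout and WT for the 85 members, at each stage; open points did not pass the test, thick lines are the members' medians, and squares with bars are the median and quartiles of all genes. The medians lay between 0.00 and 0.09, and no point was called.

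Other genes that serve respiration were read from lists chosen with earlier results of these data known. Of 7 further nuclear subunits measured, 3 were lower in the averaged step and none higher, and Cox6b2, a form known from testis, was the 1 called in the WT step (-0.85, SE 0.20, adjusted p = 0.0176 in limma). Of 42 other assembly factors 16 were lower and none higher, where 14.1% of all genes were lower and 9.23% higher. The lists were not matched for brightness. Coa7, an assembly factor of complex IV, fell by 1.03 in WT. It read 8.36 and 8.12 in WT CDPs and 7.26 and 7.17 in WT Zbtb46-GFP+ cells. The array also measured ND3 and COX2, subunits encoded in mitochondrial DNA, under names matched after the files were seen. ND3 was lower in the averaged step by 0.65 (SE 0.12, adjusted p = 0.00231 in limma), and COX2 differed by -0.13.

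Of 22 genes of the TCA cycle and of pyruvate oxidation, which supply the chain with NADH and succinate, 14 were lower in the averaged step and none higher. Over all genes 14.1% were lower and 9.23% higher. Idh2, the mitochondrial NADP-dependent isocitrate dehydrogenase, had the lowest WT difference of that list. It read 11.36 and 11.11 in WT CDPs and 9.76 and 9.67 in WT Zbtb46-GFP+ cells (-1.52, SE 0.14, adjusted p = 6.03e-05 in limma). Glycolysis was mixed, with 8 of 17 genes lower and 4 higher. Slc16a1, a lactate and pyruvate transporter, fell by 1.39 in WT, while Pfkp, a phosphofructokinase, rose by 1.31 (SE 0.21, adjusted p = 0.00217 in limma). Of 25 carriers, import and redox genes 13 were lower and 1 higher, and Hspd1, the mitochondrial chaperonin, fell by 0.86 in WT.

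Among mitochondrial ribosomal proteins, which make the mitochondrially encoded subunits, 37 of 77 were lower and 1 higher in the averaged step. Mrpl22 had the lowest called difference in WT (-1.07) and Mrpl52 rose (0.90). Of 60 cytosolic ribosomal proteins 17 were lower and none higher. Over all genes 14.1% were lower and 9.23% higher, and 26.6% of the genes of highest mean signal were lower. Neither list was matched for brightness. The cytosolic median was -0.16, beside -0.34 for the mitochondrial ribosomal proteins and -0.25 for the respiratory chain.

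Of 20 regulators of mitochondrial genes 8 were lower and 2 higher in the averaged step (all genes, 14.1% and 9.23%). Tfam, which packages mitochondrial DNA and starts its transcription, fell by 0.53 (SE 0.12, adjusted p = 0.00654 in limma). It read 8.29 and 8.39 in WT CDPs and 7.91 and 7.72 in WT Zbtb46-GFP+ cells. Some others of that machinery were lower too: Tfb2m by 0.58, the polymerase Polrmt by 0.31, the helicase Twnk by 0.56 and the DNA-binding protein Ssbp1 by 0.69. Tfb1m, Polg and Polg2 of the same list did not pass. In WT, Batf3 KO and Id2 KO, Polg averaged 7.64, 7.59 and 7.6 in CDPs, then 7.71, 7.66 and 7.41. Polg2 averaged 7.81, 7.94 and 8.06, then 7.67, 7.92 and 7.72, and Tfb1m 9.2, 9.2 and 9.19, then 8.7, 8.75 and 8.91. Among factors that act on nuclear genes, Gabpb1, a GABP subunit, fell by 0.55, the coactivator Pprc1 by 0.57 and Myc by 0.50. Nrf1, Gabpa (another GABP subunit) and Yy1 did not pass. Nrf1 averaged 9.22, 9.12 and 9.20 in CDPs of WT, Batf3 KO and Id2 KO and 9.12, 9.13 and 9.24 in Zbtb46-GFP+ cells. The same means for Gabpa were 8.34, 8.35 and 8.49, then 8.23, 8.24 and 8.37. For Yy1 they were 10.06, 9.94 and 10.07, then 9.96, 9.96 and 9.79. For Myc the single steps were -0.34 (WT), -0.04 (Batf3 KO) and -1.12 (Id2 KO). Only the last of these passed (adjusted p = 0.00481 in limma). Hif1a, the hypoxia factor, rose by 0.35 and Tfeb, a factor of lysosomal genes, by 0.53.

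**Figure D5:**
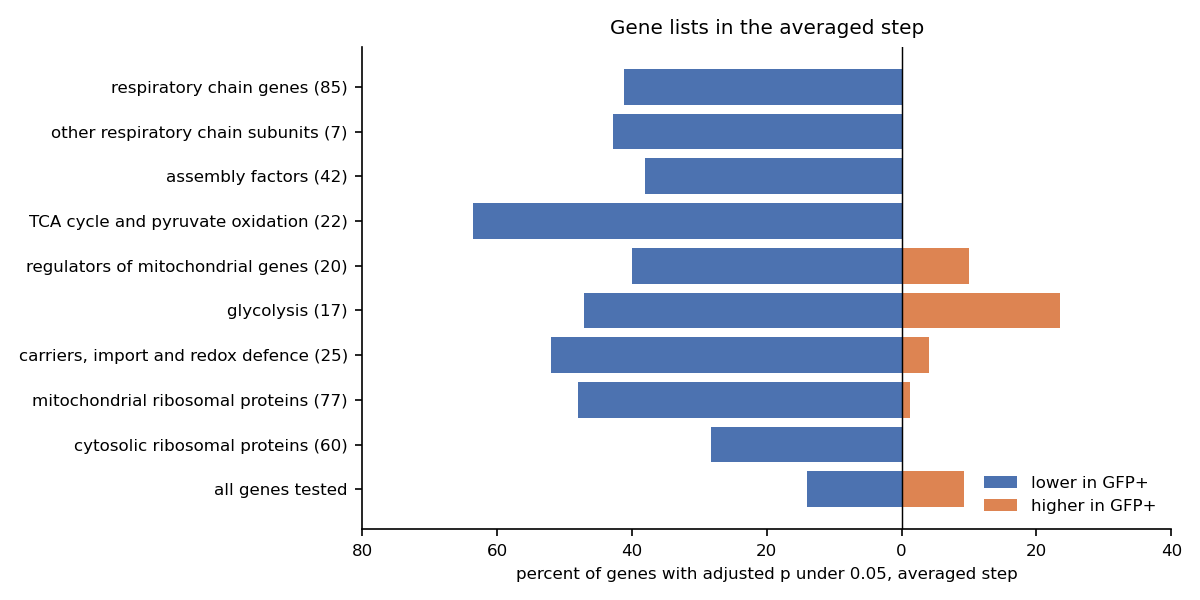
Percent of each list's measured genes (number in parentheses) that passed the test in the averaged step, lower in Zbtb46-GFP+ cells to the left and higher to the right. The respiratory chain had 35 of 85 lower, the TCA cycle list 14 of 22, and all genes 14.1%. The lists were not matched for brightness.

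One subunit outside the members differed with Id2. Cox6a2, known from muscle and from plasmacytoid dendritic cells (pDCs), read 9.07 and 8.50 in Id2 KO Zbtb46-GFP+ cells and 7.54 and 7.63 in WT (1.20, SE 0.26, adjusted p = 0.0467 in limma). It was the 1 gene called of the 7 further subunits. Of 4 pDC markers 3 were higher in the same comparison, with summed signals of 13486 to 14285 in Id2 KO and 3488 to 4896 in WT. Their part in the Cox6a2 difference was not tested.

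RefSeq promoter windows of 300 bases were found for 71 of the 85 members (76 windows, GRCm38.p6), and 5 motifs were searched on both strands. The NRF1 core GCGCATGC was in 12 of the 76 windows (15.8%), against 2.71% of all 32851 windows. The ETS core CCGGAAG was in 21.1% against 8.86%, and the YY1 core AAGATGG in 13.2% against 6.34%. CCAAT was in 40.8% against 37.4%, and the E-box CACGTG in 9.21% against 7.15%. A match is a description of the letters and not a site.

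The NRF1 cores of members lower in the averaged step, and that of Cycs, are shown with 10 bases on each side, 5′ to 3′ on the gene's strand, with the core in capitals.
Ndufaf4: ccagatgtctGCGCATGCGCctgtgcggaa
Ndufaf4: cccctggtgtGCGCATGCtccgtgcgta
Ndufa8: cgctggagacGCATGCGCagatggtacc
Sdhb: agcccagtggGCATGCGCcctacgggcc
Uqcrc1: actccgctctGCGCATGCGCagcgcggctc
Cycs: atgctagctcGCATGCGCgcgcacaaac

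The stretches lie at chr4:24897960-24897989 and chr4:24898074-24898101 for Ndufaf4, chr2:36049329-36049356 for Ndufa8, chr4:140961207-140961234 for Sdhb, chr9:108936668-108936697 for Uqcrc1 and chr6:50566612-50566639 for Cycs. Of the 12 members with it 4 were lower, with a median of -0.29, and of the 59 others with a window 24 were lower, with a median of -0.25.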

How the data were processed

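Per the submitters' processing notes, the deposited values are linear array intensities that the authors summarised per probe set with RMA in Affymetrix Expression Console, with no version or setting given. Per the labels, total RNA of sorted bone marrow cells was labelled with a WT Pico kit. Each array held 28853 probe sets, 21789 with a single symbol. The brightest of a gene's probe sets was kept and log2 taken, for 19938 genes, and 82 of the 85 members passed a filter on low signal. The number of arrays limits the precision.

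Group means were fitted with limma 3.58.1 in R 4.3.3 on 12 arrays (6 residual degrees of freedom), two-sided, for 9 comparisons, and p-values were adjusted in each over all genes (Benjamini-Hochberg), with calls at an adjusted p under 0.05. The procedure was tested on simulated data. The members and lists were chosen with earlier results of these data known. The naming rule took called members (the 6 with the greatest change where more than 12 passed), the greatest WT difference in each complex, the isoform families, the knocked-out genes, called regulators and each list's most changed called gene. Genes named beyond it were picked after their values were seen.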

Additional observations from a re-analysis of the deposited data

How the results depend on the processing

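Every count in this section is of members called out of 85 (82 after the low-signal filter). No member called in the main fit reversed under any setting run. Atp5h, Cox7a2l and Ndufv3, not called in the averaged step, changed sign and were called there with the replicate block on 15 arrays. The WT step had 3 members called, and 8 with quantile normalization, 5 with log2(value + 32), 6 with a trend in eBayes, 6 with the low-signal filter, 7 with all 15 arrays and a term for the 3 apart, 0 without that term, and 21 with a block for brighter and dimmer arrays. Of all genes tested in each fit 11.1% were called, and in that order 15.3%, 11%, 10.8%, 23.9%, 13.4%, 0.00502% and 24.2%. The Batf3 KO step had 0, and in the same order 5, 3, 3, 2, 3, 0 and 14, with 1 under 75th percentile centring and 1 with probe sets averaged. Of all genes the shares were 7.18%, and in that order 11.1%, 7.21%, 7.02%, 15.7%, 9.62%, 0% and 17.5%, then 7.6% and 7.3%. The Id2 KO step had 1, and in the same order 4, 2, 2, 2, 4, 0 and 9, with 2 under 75th percentile centring. Of all genes the shares were 6.82%, and in that order 11.2%, 6.72%, 6.67%, 15.3%, 9.61%, 0% and 16.2%, then 7.75%. Id2 KO against WT in Zbtb46-GFP+ cells had 0, and 1 with quantile normalization (all genes, 3.14%) and 1 with the brightness block (all genes, 6.08%). The averaged step had 35, and 18 with 75th percentile centring and 0 with 15 arrays and no term. The brightness block gave 52 there, 51 lower and 1 higher, where 36.5% of all genes were called. The 1 higher was Cox8c, with an adjusted p of 0.0319 in limma. That centring moved the members' WT median from -0.29 to -0.18. The neutrophil covariate, chosen after seeing the data, gave 49, 46 and 29 in the WT, Batf3 KO and Id2 KO steps and 52 in the averaged step. In those single-genotype steps it called 32.5%, 27.1% and 20.8% of all genes. That covariate largely followed stage and cannot be told apart from it. Leaving out single arrays gave 0 to 7 in WT (0 without WT CDP replicate 1, 1 without WT Zbtb46-GFP+ replicate 3, 7 without either Id2 KO CDP array). It gave 0 to 4 in Batf3 KO (4 without either Id2 KO CDP array), 0 to 7 in Id2 KO (0 without Id2 KO CDP replicate 1 or either Zbtb46-GFP+ array, 7 without Id2 KO CDP replicate 2) and 16 to 51 in the averaged step. Its low value came without Id2 KO Zbtb46-GFP+ replicate 3 and its high value without Id2 KO CDP replicate 2, and it was 18 without WT CDP replicate 1, Batf3 KO CDP replicate 1 or Batf3 KO Zbtb46-GFP+ replicate 3, 19 without Id2 KO CDP replicate 1, and 22 without WT Zbtb46-GFP+ replicate 3 or Batf3 KO CDP replicate 2. A lone array left in a group is assumed to vary like the others. The cause of these changes was not tested.

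Taken over all groups, replicate numbers did not pair the arrays: deviations of same-numbered arrays correlated from -0.63 to 0.68, above 0.1 in 11 of 21 pairs. With 2 arrays per group the deviations mirror each other, so these pairs are not separate evidence. Within CDPs, replicate 1 was the brighter array and had the higher neutrophil marker sum in every genotype. With the replicate block on 12 arrays 8.44%, 5.91% and 6.29% of all genes were called in WT, Batf3 KO and Id2 KO. The members' calls were 1, 0 and 0 there, and 3 in the averaged step. With the replicate block on 15 arrays they were 0, 0, 0 and 66, where 54.8% of all genes were called in the averaged step. Only CDPs have replicate 1 and only Zbtb46-GFP+ cells have replicate 3 on the 12 arrays, so that block takes in part of the step. The other 5 comparisons kept 0 members called under every setting run.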
